A study of Mus musculus with 90 samples.

Results

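*Rgs16* (ENSMUSG00000026475) codes for a regulator of G-protein signalling, and its transcript was followed in mouse liver over feeding state, time of day, loss of the glucocorticoid receptor and added corticosterone. It is 1 of the 27654 genes in the 4 count tables and was found by its Ensembl ID. The gene was selected on its measured levels in these same livers across diet, genotype, time point and corticosterone, so that all of its levels and differences are given as a description without a test. The study asked how the glucocorticoid receptor (GR, the product of *Nr3c1*) shapes the daily response of the liver to caloric restriction (cal. res.). Adult male C57BL/6J mice on chow were kept on a control (ctrl.) diet, with food at night only in the week before sampling, or were brought down over weeks to 40% fewer calories. Every group was fed at zeitgeber time (ZT) 12, when the lights went off. In the time series the GR LKO mice carried GRfl/fl together with Alb-Cre, which deletes the receptor in hepatocytes and leaves it in the other cells of the liver, and the mice called WT carried GRfl/fl without Cre. On cal. res. 3 livers per genotype were taken at each of 6 time points 4 h apart (36 libraries). On control diet the numbers were 3 per genotype at ZT0 and ZT4, 4 per genotype at ZT8 and ZT12, and 4 WT and 3 GR LKO at ZT16 and ZT20 (42 libraries). A separate diet comparison held 3 WT livers on cal. res. and 3 on control diet at ZT12, and the titles of these 3 controls carry the letters AL although their treatment label is night-restricted feeding. A corticosterone experiment held 3 WT livers of control-fed mice given corticosterone (CORT) and 3 control livers, labelled as night-restricted feeding, all at ZT12. In the labels the mice of both ZT12 experiments are WT with no floxed allele named.

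Proteins of the RGS family speed up the hydrolysis of GTP on the α subunits of heterotrimeric G proteins and so shorten the signal that a G-protein-coupled receptor sends. Rgs16 acts on the Gi and Gq classes, through which hormones and lipid mediators lower cAMP or release calcium in hepatocytes. Glucagon and adrenaline act on the liver in fasting through receptors of the same superfamily, mainly through Gs and Gq.

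In the mouse genome build GRCm38 (mm10) *Rgs16* lies on the plus strand at chr1:153740349-153745468, a span of 5120 bases. The annotation holds 1 transcript for it, with 5 exons, 4 introns and 603 coding bases. Levels are given in CPM (the count of a gene scaled to a common library size, after TMM scaling), and log2 differences are differences between group means of log2 CPM with their standard error (SE). Libraries held 36442195 to 39492146 counts in the diet comparison, 14235473 to 20788575 on cal. res. and 10057544 to 17089004 on control diet in the time series, and 13739631 to 16077943 in the corticosterone experiment. The estimated count of *Rgs16* ran from 2448 to 7496 in the diet comparison, from 7 to 9460 on cal. res., from 1 to 2254 on control diet and from 13.0 to 1896 in the corticosterone experiment. A level of about 0.15 CPM in a control-diet library therefore rests on 2 counts and is uncertain by counting alone, while a level above 10 CPM rests on over 100 counts.

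The genotype labels were checked first on *Nr3c1* (ENSMUSG00000024431). At ZT12 on cal. res. it was at 101 ± 2.76 CPM in WT livers against 31.2 ± 0.811 CPM in those of GR LKO mice (SD, n = 3 each), with a log2 fold change of -1.70 (SE 0.07, adjusted p = 8.33e-05 by the quasi-likelihood F test of edgeR, Benjamini-Hochberg over all genes tested). On control diet it was at 84.4 ± 6.07 CPM and 21.3 ± 2.71 CPM (SD, n = 4 each), with a log2 fold change of -1.98 (SE 0.10, adjusted p = 5.05e-05 by edgeR). Over all time points every GR LKO library lay below every WT library of its diet, so that the labels and the level of the deleted gene went together. In the diet comparison and the corticosterone experiment, where no receptor was deleted, *Nr3c1* was at 86.4 ± 2.04 CPM on cal. res. against 91.5 ± 3.67 CPM, and at 70.5 ± 11.7 CPM with CORT against 73.6 ± 4.02 CPM (SD, n = 3 each).

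All 90 libraries carried the markers of liver. Of the 7 hepatocyte markers 6 were matched to a gene by their symbol. These 6 summed to 70623 to 170403 CPM per library, with albumin (*Alb*) as the defining and most abundant gene. Markers of other cells summed to far less. Kupffer and myeloid markers (defining and top gene *Clec4f*) reached 49.4 to 382 CPM and endothelial markers (defining *Cdh5*) 73.7 to 237 CPM. Stellate cell markers (defining *Lrat*, top *Dcn*) reached 102 to 498 CPM, cholangiocyte markers (defining *Krt19*, top *Spp1*) 22.6 to 153 CPM and erythrocyte markers (*Hbb-bs*) 207 to 3844 CPM. Lymphocyte markers (defining *Cd3e*) reached 0.0750 to 5.77 CPM, neutrophil markers (defining *S100a8*) 0.399 to 6.81 CPM, and adipocyte markers 2.42 to 53.9 CPM with the defining *Adipoq* at 0 in 62 of the 90 libraries. The exocrine pancreas marker *Prss2* was at 0 in 83 of the 90 libraries. A single WT liver on cal. res. at ZT12 (replicate 3) held 958 CPM of the 10 pancreas markers and *Prss2* at 87.5 CPM, and another on control diet at ZT16 (WT replicate 2) held 451 CPM and *Prss2* at 39.1 CPM. For the differences of *Rgs16* between genotypes and over the meal, and for the number of genes called there, values without these livers are given as well, while the steps from ZT8 to ZT12 and the cosine fits include them. Whole liver was sequenced, so that fewer cells with the transcript and less of it in each cell cannot be told apart in any level below.

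On cal. res. every liver taken from ZT4 to ZT12 held more *Rgs16* than every liver taken at ZT0, ZT16 and ZT20, whichever the genotype. At lights on, ZT0, it stood at 4.39, 20.4 and 6.79 CPM in WT and, for GR LKO, at 2.20, 7.28 and 15.3 CPM. By ZT4 the WT values were 92.5, 260.2 and 65.2 CPM and the GR LKO values 199.8, 56.3 and 22.4 CPM. In the middle of the light phase, at ZT8, WT livers held 533, 102 and 294 CPM, and 189, 126 and 191 CPM were found in GR LKO. At each of these 3 times the genotypes overlapped, and single livers of a group differed by up to 8.90-fold. Just before the meal at ZT12 the level was 85.8, 158 and 188 CPM in WT against 33.0, 23.6 and 22.2 CPM in GR LKO. At ZT16, 4 h into the dark phase, it was 4.26, 6.39 and 2.53 CPM in WT against 0.984, 0.592 and 0.695 CPM in GR LKO. Every GR LKO liver lay below every WT liver at both ZT12 and ZT16. By ZT20 the WT livers were at 1.22, 2.01 and 1.85 CPM and the GR LKO livers at 0.807, 6.54 and 0.448 CPM, with a single GR LKO liver above all WT livers.

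The order of the group means on cal. res. began with WT at ZT8 (309.8 ± 216 CPM, SD, n = 3), followed by GR LKO at ZT8 (169 ± 37.0), WT at ZT12 (144 ± 52.7), WT at ZT4 (139 ± 106), GR LKO at ZT4 (92.9 ± 94.2) and GR LKO at ZT12 (26.3 ± 5.83). Neighbours among these 6 groups overlapped. Below them came WT at ZT0 (10.5 ± 8.65), GR LKO at ZT0 (8.25 ± 6.59), WT at ZT16 (4.40 ± 1.93), GR LKO at ZT20 (2.60 ± 3.42), WT at ZT20 (1.70 ± 0.417) and GR LKO at ZT16 (0.757 ± 0.204 CPM). Only 2 steps of this order were free of overlap, that from GR LKO at ZT12 down to WT at ZT0 and that from WT at ZT20 down to GR LKO at ZT16. The spread between livers was widest, as a share of the mean, in GR LKO at ZT20 (131.6%) and ZT4 (101%).

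On control diet the group means of both genotypes were highest at ZT8 and next at ZT12. At ZT0 the level was 0.266, 1.65 and 0.427 CPM in WT against 0.153, 0.149 and 0.727 CPM in GR LKO, which in 3 of the 6 libraries was 3 counts or fewer after rounding to whole counts. The ZT4 values were 2.65, 1.39 and 4.42 CPM in WT against 11.8, 2.80 and 1.22 CPM in GR LKO. At ZT8 the 4 WT livers held 63.6, 35.2, 119 and 86.9 CPM, against 68.8, 71.5, 177 and 111 CPM in the 4 GR LKO livers. The genotypes overlapped at all of these times, and every liver at ZT8 lay above every liver at ZT0 and ZT4. At the next time, ZT12, WT livers were at 118, 15.4, 20.9 and 48.9 CPM and GR LKO livers at 11.8, 11.1, 19.7 and 7.85 CPM. The ZT16 values were 6.11, 2.83, 4.88 and 1.44 CPM in WT against 1.29, 0.480 and 1.26 CPM in GR LKO. The genotypes overlapped at ZT12 through 1 GR LKO liver at 19.7 CPM, above WT replicate 2, and did not overlap at ZT16. At ZT20 the WT level was 0.731, 1.49, 1.00 and 1.07 CPM and the GR LKO level 2.28, 0.0998 and 0.351 CPM, the second of which rests on 1 count.

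Group means on control diet were highest in GR LKO at ZT8 (107 ± 50.5 CPM, SD, n = 4), WT at ZT8 (76.3 ± 35.7, n = 4), WT at ZT12 (50.8 ± 47.2, n = 4) and GR LKO at ZT12 (12.6 ± 5.02, n = 4). They were followed by GR LKO at ZT4 (5.27 ± 5.69, n = 3), WT at ZT16 (3.82 ± 2.08, n = 4), WT at ZT4 (2.82 ± 1.52, n = 3) and WT at ZT20 (1.07 ± 0.315, n = 4). The lowest were GR LKO at ZT16 (1.01 ± 0.460, n = 3), GR LKO at ZT20 (0.910 ± 1.19, n = 3), WT at ZT0 (0.781 ± 0.757, n = 3) and GR LKO at ZT0 (0.343 ± 0.333 CPM, n = 3). Each group in this order overlapped with the next. The 2 diets of the time series were in separate count tables and library batches, so that diet and batch cannot be told apart there and no level is compared between them.

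**Figure D1:**
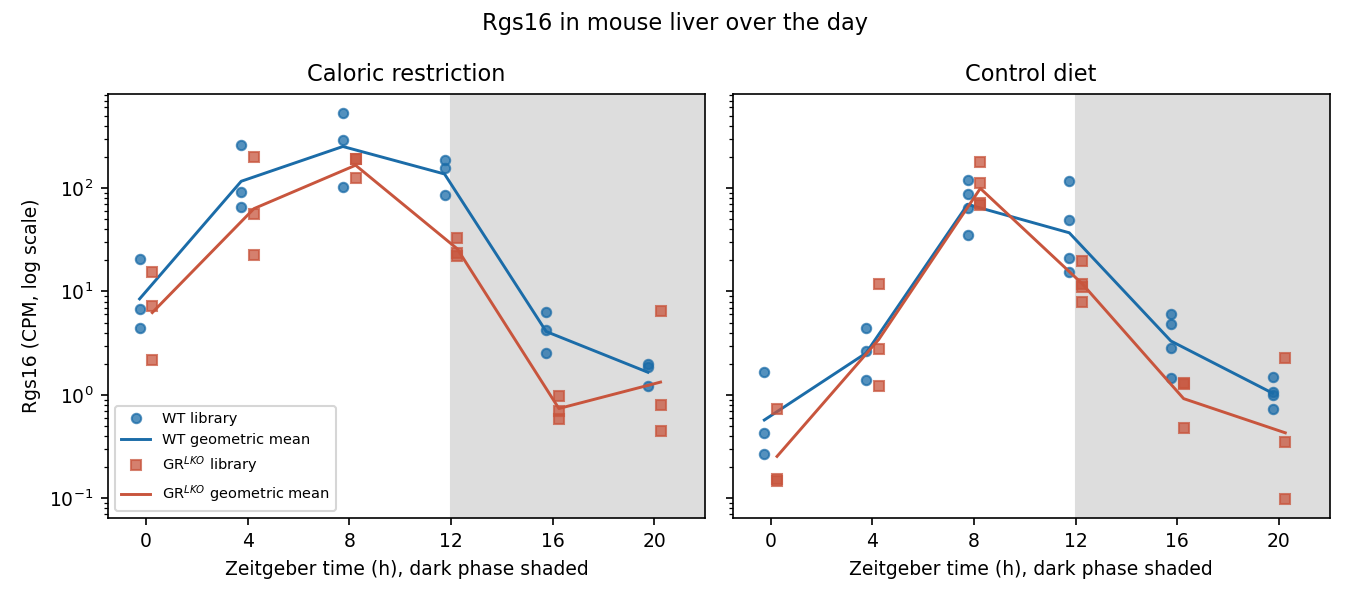
*Rgs16* in CPM on a log axis against zeitgeber time in hours, with 1 point per liver (circles WT, squares GR LKO), lines through the geometric means and the dark phase shaded, for cal. res. (left) and control diet (right). On cal. res. the GR LKO livers at ZT12 (22.2 to 33.0 CPM) sit below the WT livers (85.8 to 188 CPM), while the genotypes overlap at ZT8.

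The daily swing of *Rgs16*, taken as the difference between the highest and the lowest group mean of log2 CPM, was 7.15 in WT (ZT8 against ZT20) and 7.60 in GR LKO (ZT8 against ZT16) on cal. res. On control diet it was 6.53 in WT and 7.86 in GR LKO, both between ZT8 and ZT0, where 3 of the 6 libraries held 3 rounded counts or fewer. A cosine of 24 h fitted to log2 CPM had an amplitude of 3.85 ± 0.30 (SE) in WT and 3.83 ± 0.40 in GR LKO on cal. res., with peaks at ZT 7.77 ± 0.30 and ZT 6.77 ± 0.40. These amplitudes differed by less than their errors, and they were the 4th and the 2nd highest of the 8873 genes fitted there, whose median amplitude was 0.236 in WT and 0.229 in GR LKO. On control diet the amplitude was 3.32 ± 0.33 in WT, with the peak at ZT 10 ± 0.38, and 3.70 ± 0.43 in GR LKO, with the peak at ZT 8.86 ± 0.46. Those ranked 7th and 4th of 8848 genes, against medians of 0.185 and 0.191. The cosine took up 91.4% of the variance in WT and 86.0% in GR LKO on cal. res., and 84.6% and 81.0% on control diet. In both diets the fitted peak lay earlier in GR LKO than in WT, and the difference between the peaks was not tested.

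The steps between neighbouring times are given for each diet by itself. From ZT0 to ZT4 on cal. res. the log2 difference of *Rgs16* was 3.76 (SE 0.88) in WT and 3.31 (SE 1.21) in GR LKO, with no overlap between the times. From ZT4 to ZT8 it was 1.12 in WT and 1.39 in GR LKO and the livers overlapped. The step from ZT20 to ZT0 was 2.28 (SE 0.68, no overlap) in WT and 2.09 (SE 1.35, overlapping) in GR LKO, so that the largest upward step on cal. res. was that from ZT0 to ZT4. On control diet the ZT4 to ZT8 step was the largest, 4.69 (SE 0.59) in WT and 4.77 (SE 0.97) in GR LKO without overlap, after 1.84 (SE 0.79, overlapping) and 3.09 (SE 1.05) from ZT0 to ZT4. From ZT8 to ZT12 the difference was -2.68 (SE 0.26) on cal. res. and -3.04 (SE 0.42) on control diet in GR LKO livers, with no overlap. In WT livers it was -0.88 (SE 0.78) and -0.91 (SE 0.76), with overlap on both diets. The difference between the genotypes in this step was not tested. From ZT16 to ZT20 the difference on cal. res. was -1.25 (SE 0.43, no overlap) in WT and 0.82 (SE 1.11, overlapping) in GR LKO. On control diet that step was -1.55 (SE 0.48) in WT and -0.70 (SE 1.05) in GR LKO, and from ZT20 to ZT0 -0.66 (SE 0.67) and -0.65 (SE 1.10), all with overlap.

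The genotype comparison at ZT12, the hour of the glucocorticoid peak, asks what depends on the receptor in hepatocytes. On cal. res. *Rgs16* was 5.48-fold lower in mean CPM in GR LKO than in WT livers, with a log2 difference of -2.40 (SE 0.39, n = 3 each) and no overlap. Without WT replicate 3, the liver with pancreas transcripts, the log2 difference was -2.16. On control diet the mean was 4.03-fold lower, with a log2 difference of -1.62 (SE 0.71, n = 4 each) and overlapping livers, and it was -1.06 without WT replicate 1, the liver at 118 CPM. At ZT16 the level in GR LKO was lower again, by a log2 difference of -2.30 (SE 0.42) on cal. res. and -1.69 (SE 0.59) on control diet, -1.77 without the WT liver that held pancreas transcripts. At the other hours the genotype difference was within the spread of the livers. On cal. res. it was -0.43 (SE 1.03) at ZT0, -0.88 (SE 1.09) at ZT4, -0.60 (SE 0.73) at ZT8 and -0.23 (SE 1.11) at ZT20. On control diet the values at those hours were -0.82 (SE 0.83), 0.43 (SE 1.02), 0.51 (SE 0.49) and -0.84 (SE 0.99). Leaving out 1 liver turned the sign of the difference at ZT0 and ZT20 on cal. res. and at ZT4 on control diet. At ZT20 on cal. res. the mean CPM was higher in GR LKO (2.60 against 1.70 in WT), opposite in direction to the log2 difference.

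Among all genes tested at ZT12 on cal. res., 7.84% were called lower and 7.42% higher in GR LKO (922 and 873 of 11759, adjusted p under 0.05 by edgeR), and *Rgs16* had the 58th lowest log2 fold change. Without the WT liver with pancreas transcripts 1032 genes were called, in place of 1795. On control diet 1.27% were called lower and 0.814% higher (145 and 93 of 11428), and *Rgs16* was the 33rd lowest. Of 14 genes known to be induced by glucocorticoids, 12 fell on cal. res. (median log2 fold change -1.72, against 0.00 over all genes) and 7 on control diet (median -1.05). The metallothionein *Mt2* fell by 4.11 and *Cdkn1a*, an inhibitor of the cell cycle, by 3.80 on cal. res., and the transcription factor *Zbtb16* fell by 3.62 there and by 3.86 on control diet, all on the log2 scale. The clock genes did not move in 1 direction on cal. res., where 6 of 18 fell and 5 rose. *Dbp*, an output factor of the clock, rose by 1.71 and *Clock*, the activator, fell by 2.22 on the log2 scale. At ZT16 *Rgs16* was the 28th lowest of 11905 genes on cal. res. and the 44th lowest of 11723 on control diet, where 4.54% and 1.98% of genes were called in either direction, and 4 and 5 of the 14 glucocorticoid-induced genes fell. On control diet at ZT16, 232 genes were called with the WT liver that held pancreas transcripts and 93 without it.

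Transcripts that serve as cell-type markers also moved at ZT12 on cal. res., and whether the cells themselves did was not measured here. The 6 hepatocyte markers summed to 165784, 169634 and 170403 CPM in WT against 125096, 134292 and 115877 CPM in GR LKO livers, with 4 of the 6 called lower. The 8 Kupffer and myeloid markers summed to 53.6, 87.8 and 63.0 CPM in WT against 149, 118 and 179.5 CPM in GR LKO, with 4 of the 8 called higher, and *Clec4f*, the top gene, at 13.7 to 23.6 CPM and 34.7 to 42.3 CPM. The part of these shifts in the *Rgs16* difference was not tested. On control diet at ZT12 the Kupffer and myeloid sum was 62.9 to 94.8 CPM in WT against 63.5 to 95.8 CPM in GR LKO, while 2 of the 6 hepatocyte markers were called lower and 1 of 2 tested adipocyte markers higher, beside 1.27% and 0.814% of all genes.

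From ZT12 to ZT16, across the start of feeding at lights off, *Rgs16* was lower at the later time in all 4 combinations of genotype and diet, with no overlap in any. This step is called the meal for both diets, although control mice had food for the whole night. The log2 difference on cal. res. was -5.02 (SE 0.51) in WT and -4.92 (SE 0.26) in GR LKO, and on control diet -3.41 (SE 0.79) in WT and -3.48 (SE 0.48) in GR LKO. Leaving out the livers with pancreas transcripts gave -4.78 and -3.33 in WT. Within a diet the step differed between the genotypes by less than its error, although the level from which it started at ZT12 was lower in GR LKO. In WT livers on cal. res. *Rgs16* had the 8th lowest log2 fold change of 11768 genes, in a step over which 19% of genes were called lower and 21% higher. Its place was 3rd of 11452 in WT on control diet, 10th of 11943 in GR LKO on cal. res. and 9th of 11753 in GR LKO on control diet, where 13.4%, 37.8% and 9.06% of genes were called in either direction. Without the livers with pancreas transcripts the genes called in WT numbered 3584 on cal. res. and 1145 on control diet, in place of 4705 and 1540. These counts, and those above for the genotypes, lay within the ranges found with any other single liver left out.

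Genes induced by glucocorticoids and genes of fasting went the same way as *Rgs16* over the meal in WT livers on cal. res., while more genes of sugar use rose than fell. Of the 14 glucocorticoid-induced genes 12 fell (median log2 fold change -1.58, against 0.01 over all genes), and of 20 genes induced by fasting 15 fell and 1 rose (median -1.3). *Igfbp1*, which binds insulin-like growth factors, fell by 5.80 and *Pck1*, a rate-limiting enzyme of gluconeogenesis, by 3.94 on the log2 scale. Of 20 genes induced by glucose, 8 rose and 2 fell, and fatty acid synthase (*Fasn*) rose by 3.56 on the log2 scale. Among the 19 clock genes 10 fell and 4 rose. Of all genes tested in this step 19% were called lower and 21% higher. The repressors *Nr1d1* and *Nr1d2* fell by 3.81 and 3.28, and the activator *Arntl*, which they repress, rose by 1.42 on the log2 scale. All 8 Kupffer and myeloid markers rose, with sums of 53.6 to 87.8 CPM at ZT12 and 129 to 173 CPM at ZT16, and 4 of the 6 hepatocyte markers fell. In WT livers on control diet 4 of 6 endothelial, 3 of 6 stellate cell and 2 of 4 cholangiocyte markers rose, beside 6.85% of all genes (784 of 11452). In GR LKO livers on cal. res. the Kupffer and myeloid sum was 118 to 179.5 CPM at ZT12 and 144 to 188 CPM at ZT16. The part of these markers in the step of *Rgs16* was not tested. Of the glucocorticoid-induced and the fasting genes, 4 of 14 and 5 of 19 fell in WT on control diet, and 1 of each list rose. In GR LKO on cal. res. 8 of 14 and 12 of 19 fell, with 2 and 0 higher. On control diet 3 of 13 and 3 of 19 fell in GR LKO, with 1 and 2 higher. Shares of all genes called lower in these steps were 6.60%, 17.8% and 4.78%, and higher 6.85%, 20.1% and 4.28%.

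The separate diet comparison gives the effect of cal. res. in WT livers at ZT12 in 1 set of libraries. *Rgs16* was at 75.9, 84.4 and 64.5 CPM on control diet and at 213, 171 and 110 CPM on cal. res. Every liver on cal. res. was above every control liver. Means were 74.9 ± 9.97 and 165 ± 51.4 CPM (SD, n = 3 each), a ratio of 2.20 and a log2 difference of 1.09 (SE 0.30), which ran from 0.88 to 1.35 as each liver was left out. Called genes made up 23.5% of the 13062 tested in the upward and 23.6% in the downward direction (3073 and 3082 genes), and *Rgs16* had the 690th highest log2 fold change.

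Beside it, 11 of the 14 glucocorticoid-induced genes rose with the diet and none fell by edgeR, with none lower at an unadjusted p under 0.05 or with DESeq2 either (median log2 fold change 1.35, against 0.00 over all genes). *Cdkn1a* rose by 5.12 and *Tat*, which breaks down tyrosine, by 2.96 on the log2 scale. All counts of this comparison stand beside 23.5% of all genes called higher and 23.6% called lower. Among the 20 fasting genes 12 rose and 3 fell, and the stress gene *Ddit4* rose by 5.66 and *Igfbp1* by 5.11. Of the 18 clock genes tested 9 rose and 6 fell, with *Arntl* up by 4.57 and *Dbp* down, at a log2 fold change of -3.22. The glucose-induced genes, with 10 of 20 higher and 3 lower, included *Txnip*, a brake on glucose uptake, which rose by 2.13. The hepatocyte marker sum was 94309 to 97832 CPM on control diet and 154906 to 157688 CPM on cal. res., carried by *Alb*, with 2 of the 6 markers higher, 1 lower and a median log2 fold change of 0.05, and endothelial markers summed to 116 to 152 CPM and 194 to 222 CPM. Of the tested markers 4 of 6 endothelial, 3 of 6 stellate cell, 2 of 4 cholangiocyte and 1 of 1 adipocyte genes rose, beside 23.5% of all genes. Lower were 1 of 8 Kupffer and myeloid and 1 of 5 erythrocyte markers, beside 23.6% of all genes. The part of these shifts in the *Rgs16* difference was not tested.

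CORT in control-fed WT mice gave the widest gap in *Rgs16* of the ZT12 comparisons. The control livers were at 1.58, 1.12 and 0.892 CPM and the CORT livers at 143, 107 and 94.1 CPM, so that the groups were far apart. Means were 1.20 ± 0.349 and 115 ± 25.5 CPM (SD, n = 3 each), a ratio of 96.1 and a log2 difference of 6.44 (SE 0.28) that ran from 6.27 to 6.64 as each liver was left out. *Rgs16* had the 6th highest log2 fold change of 11523 genes, of which 4.47% were called higher and 3.64% lower (515 and 420 genes). These shares hang on single livers, since the 935 genes called in either direction became 206 without control replicate 2 and ran up to 1008 with another liver left out. The control level of this experiment was low. At the same hour, WT livers on control diet were at 64.5 to 84.4 CPM in the diet comparison and at 15.4 to 118 CPM in the time series. These are separate experiments and libraries, so the values are set side by side and not compared, but the ratio of 96.1 belongs to its own control group.

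With CORT 13 of the 14 glucocorticoid-induced genes rose and none fell by edgeR, with none lower at an unadjusted p under 0.05 or with DESeq2 (median log2 fold change 2.22, against -0.01 over all genes). *Mt2* rose by 8.86, *Mt1* by 7.19 and *Lcn2*, a secreted protein that binds iron carriers, by 6.97 on the log2 scale. Of 19 fasting genes 7 rose and 2 fell, beside 4.47% and 3.64% of all genes. Among the 18 clock genes 3 rose and none fell by edgeR, although 4 were lower at an unadjusted p under 0.05 and 3 with DESeq2, and the light-responsive repressor *Per1* rose by 2.04 on the log2 scale. None of the 20 glucose-induced genes was called by edgeR, with 1 higher and 3 lower at an unadjusted p under 0.05 and 2 lower with DESeq2. Kupffer and myeloid markers summed to 80.2 to 110 CPM in control and 114 to 165 CPM in CORT livers, neutrophil markers to 0.933 to 1.92 CPM and 3.18 to 4.64 CPM, and erythrocyte markers to 633 to 788 CPM and 300 to 561 CPM. By edgeR 2 of 8 Kupffer and myeloid and 1 of 6 hepatocyte markers rose, beside 4.47% of all genes. Called lower were 1 of 6 endothelial, 1 of 6 stellate cell and 1 of 4 cholangiocyte markers, beside 3.64% of all genes. None of the 5 erythrocyte and 2 neutrophil markers tested was called by edgeR. At an unadjusted p under 0.05 all 5 erythrocyte markers were lower, 4 of them with DESeq2 as well, and 1 neutrophil marker was higher, with 0 by DESeq2. The part of the markers in the *Rgs16* difference was not tested.

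**Figure D2:**
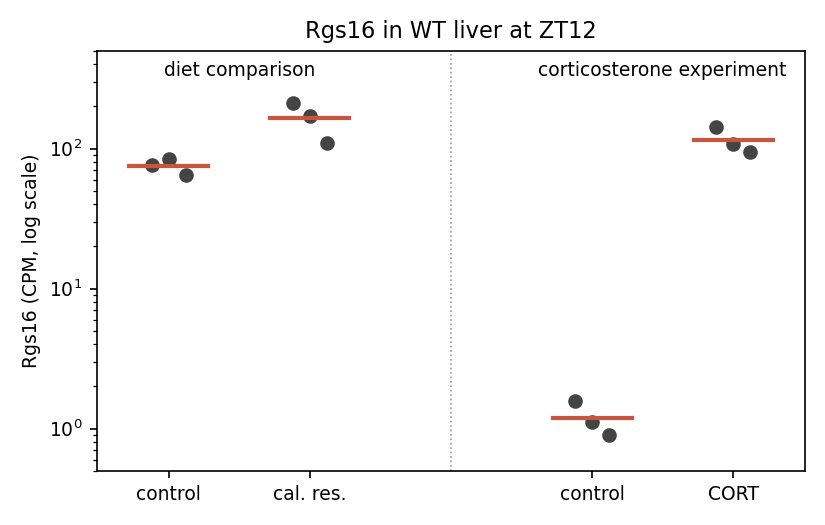
*Rgs16* in CPM on a log axis in single WT livers at ZT12 (points) with the group mean (bar), for control diet and cal. res. in the diet comparison and for control and CORT in the corticosterone experiment. The groups of each experiment do not overlap, and the CORT livers (94.1 to 143 CPM) sit far above their own controls (0.892 to 1.58 CPM).

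Other members of the RGS family were tested in the same livers. In the list of 20 other RGS genes 10 were abundant enough to be tested in the diet comparison, of which 2 rose and 2 fell, beside 23.5% and 23.6% of all genes. *Rgs3* fell from 25.7 ± 2.21 to 7.77 ± 1.82 CPM (SD, n = 3 each), with a log2 fold change of -1.72 (SE 0.17, adjusted p = 0.000474 by edgeR), and *Rgs12* fell by 0.99 (SE 0.17, adjusted p = 0.00316 by edgeR). The 2 that rose, *Rgs1* and *Rgs5*, the second of which is also a stellate cell marker, did so by 1.39 and 0.37 on the log2 scale and were past the threshold in 2 and 3 of 6 fits with a liver left out. With CORT 2 of 7 tested RGS genes fell, beside 3.64% of all genes, and none rose by edgeR, with 1 higher at an unadjusted p under 0.05 and 0 with DESeq2. Those 2 were again *Rgs3* (log2 fold change -1.20, SE 0.23) and *Rgs12* (-1.39, SE 0.23), called in 4 and 2 of 6 such fits. *Rgs16* was thus higher in both comparisons in which *Rgs3* and *Rgs12* fell. Between genotypes at ZT12 none of the 8 RGS genes tested on cal. res. and none of the 5 on control diet was called by edgeR or DESeq2, with 1 higher and 1 lower at an unadjusted p under 0.05 on cal. res. and 0 on control diet. Over the meal in WT livers on cal. res. 2 of 8 tested RGS genes rose and 1 fell, beside 21% and 19% of all genes. *Rgs4* fell by 1.88 on the log2 scale, and *Rgs2* and *Rgs12* rose by 1.20 and 0.89, calls that held in 3, 1 and 2 of 6 such fits. DESeq2 called the fall and neither rise. Of the 7 tested in GR LKO on cal. res. *Rgs4* was called alone, with a fall of 2.11 that held in 6 of 6 fits, and of the 5 tested in WT on control diet *Rgs5* alone, with a rise of 0.50 that held in 2 of 8.

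The proteins on either side of Rgs16 in the pathway were looked up next, as G-protein subunits, effectors and liver receptors. Together with the RGS list they made 82 genes. In the diet comparison 17 of the 62 tested rose and 14 fell, beside 23.5% and 23.6% of all genes. With CORT 2 of 51 rose and 4 fell, beside 4.47% and 3.64% of all genes. Between genotypes at ZT12 7 of 54 rose and 2 fell in GR LKO on cal. res., beside 7.42% and 7.84%, and 2 of 49 rose and 2 fell on control diet, beside 0.814% and 1.27%. At ZT16 the genotypes differed in 2 of 53 genes on cal. res. (3.77%, beside 4.54% of all genes) and in 3 of 48 on control diet (6.25%, beside 1.98%). Over the meal 15 of 53 rose and 6 fell in WT livers on cal. res., beside 21% and 19% of all genes. The share called there was 10.6% in WT on control diet, beside 13.4% of all genes, and in GR LKO it was 35.8% on cal. res. and 7.84% on control diet, beside 37.8% and 9.06%. No test was made of the pathway as a list.

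Single receptors and effectors moved more. The vasopressin receptor *Avpr1a*, which signals through Gq, rose with the diet from 10.9 ± 0.224 to 26.8 ± 4.37 CPM (SD, n = 3 each) and fell by 1.90 on the log2 scale in GR LKO on cal. res. at ZT12. In those comparisons its direction was that of *Rgs16*, while over the meal *Avpr1a* rose by 1.27 and *Rgs16* was lower. *S1pr1*, a receptor for sphingosine 1-phosphate that acts through Gi, had the opposite sign to *Rgs16* in all 10 comparisons and was called in 6 of them. It fell with CORT (log2 fold change -0.92, SE 0.09) and rose in GR LKO on cal. res. at ZT12 (0.79, SE 0.14). Over the meal it rose in WT (1.70 on cal. res. and 1.08 on control diet) and in GR LKO (1.08 on cal. res. and 0.79 on control diet). All of these 6 but that with CORT use the time-series libraries. Over those libraries *S1pr1* was among the 5 genes most unlike *Rgs16*, so they are not separate from that ranking. The adenylyl cyclase *Adcy6* rose in GR LKO on cal. res. by 0.95 (SE 0.08) and fell over the meal by 0.82 (SE 0.12) on the log2 scale. *Gna12*, an α subunit outside the Gi and Gq classes, rose in GR LKO on cal. res. by 1.16 and fell with the diet by 0.83 on the log2 scale.

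The genes whose pattern over the day was most like that of *Rgs16* were found by Pearson's r of log2 CPM over the 78 time-series libraries, each diet centred on its own mean. These libraries share time of day, genotype and library batch, so that r describes a common course and carries no p. Of 8632 genes with a mean of at least 5 CPM in both diets, 43 (0.498%) had an r above 0.8, and the median r was 0.046. The highest r was that of *Pnpla2* (0.883), the lipase that starts the breakdown of stored triglyceride. Next came *Klhl21* (0.877), an adaptor of a ubiquitin ligase, *Npc1* (0.874), which moves cholesterol out of lysosomes, and *Gpcpd1* (0.864), which cleaves glycerophosphocholine. *Nr1d2* (0.855), a repressor of the clock, and *Tbc1d20* (0.854), which acts on the GTPase Rab1, followed. Lower still were *Narf* (0.853), *Nfx1* (0.853) and *Fam76a* (0.851), the 10th gene, and the 11th had 0.851 as well. Described here are 9 of the 10. In single combinations of genotype and diet r ran from 0.722 (*Nfx1*, WT on control diet) to 0.953 (*Nfx1*, GR LKO on cal. res.) for these 9 genes. Once each group of genotype, diet and time point was centred on its own mean, a choice made after seeing the data, r was 0.049 (*Tbc1d20*) to 0.339 (*Gpcpd1*). The likeness thus lay in the course of the group means and hardly in the differences between livers of a group.

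The most unlike genes were *Helz2* (r = -0.892), a helicase and coactivator, *Itga5* (-0.871), a subunit of the fibronectin receptor, *S1pr1* (-0.864), *Sdc1* (-0.861), a cell surface proteoglycan, and *Mrap* (-0.859), an accessory protein of the melanocortin 2 receptor. Among the clock genes *Nr1d2* (0.855), *Dbp* (0.828) and *Tef* (0.761) were the most like *Rgs16*, and *Arntl* (-0.762), *Cry1* (-0.732) and *Nfil3* (-0.732) the most unlike. Of the fasting genes *Cpt1a* (0.670), which brings fatty acids into mitochondria, was the most like it and *Pdk4* (-0.715) the most unlike. The glucose transporter *Slc2a2* (0.831) led the glucose-induced genes, of which *Acly* (-0.754), which makes acetyl-CoA from citrate, was the most unlike. Of the glucocorticoid-induced genes *Nfkbia* (0.791), an inhibitor of NF-κB, was the most like it and *Cdkn1a* (-0.669) the most unlike. The median r of these 2 lists was 0.00783 and 0.137, and 10 of 19 and 7 of 12 genes had a positive r. In the pathway of Rgs16 itself *Adcy6* (0.620) and the β subunit *Gnb2* (0.609) had the highest r among effectors and subunits, and the other RGS genes with enough counts, *Rgs3* (-0.123) and *Rgs5* (-0.414), were not like it.

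The corticosterone experiment shares no library with the time series, so the genes found there could be tested with CORT. Of the 9 like genes described 6 rose, against the 4.47% of all genes, and of the 5 most unlike 3 fell, against 3.64%. As with *Rgs16*, these changes belong to their own control group. Beside the controls of the diet comparison, a separate experiment, its means were lower for all 9 like and higher for all 5 unlike genes. *Pnpla2* was at 41.2 CPM here and 96.5 CPM there, *Gpcpd1* at 39.5 and 424 CPM, and *S1pr1* at 75.7 and 32.1 CPM. The part of this control level in the changes was not tested. *Klhl21* rose from 24.1 ± 3.20 to 69.7 ± 7.04 CPM (SD, n = 3 each), with a log2 fold change of 1.53 (adjusted p = 0.00160 by edgeR), and *Pnpla2* from 41.2 ± 5.14 to 94.7 ± 17.5 CPM, with a log2 fold change of 1.20 (adjusted p = 0.00717 by edgeR). Both were called whichever of the 6 livers was left out. *Gpcpd1* (log2 fold change 2.50) and *Narf* (1.23) were called in 5 of these 6 fits. *Nfx1* (0.48) was called in 1 of them and *Fam76a* (0.52) in 0, nor did DESeq2 call it (adjusted p = 0.0503). The 3 like genes short of the threshold were *Npc1* (0.55, adjusted p = 0.175), *Nr1d2* (1.28, adjusted p = 0.0688) and *Tbc1d20* (0.47, adjusted p = 0.0608 by edgeR). Among the unlike genes *S1pr1* held its fall of 0.92 in all 6 fits, while *Helz2* (-0.83) and *Itga5* (-0.67) were called in 2 and 3. The log2 difference of *Rgs16* in the same livers was 6.44, larger than that of any of these genes.

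In the diet comparison, likewise made of other libraries, the like genes did not go with *Rgs16* as a group. Of the 9 described, 4 rose, against the 23.5% of all genes, and 2 fell, against 23.6%. *Klhl21* (log2 fold change 0.56), *Tbc1d20* (0.47), *Npc1* (0.43, called in 5 of 6 fits with a liver left out) and *Pnpla2* (0.38) rose. *Gpcpd1* fell from 424 ± 88.8 to 126 ± 27.2 CPM (SD, n = 3 each), with a log2 fold change of -1.76, and *Narf* fell by 1.33. Of the unlike genes *Itga5* rose by 1.14 and *Mrap* fell by 0.49 on the log2 scale. *Gpcpd1* and *Narf*, which shared the course of *Rgs16* over the day and rose beside it with CORT, were thus lower on cal. res. at ZT12, where *Rgs16* was higher.

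**Figure D3:**
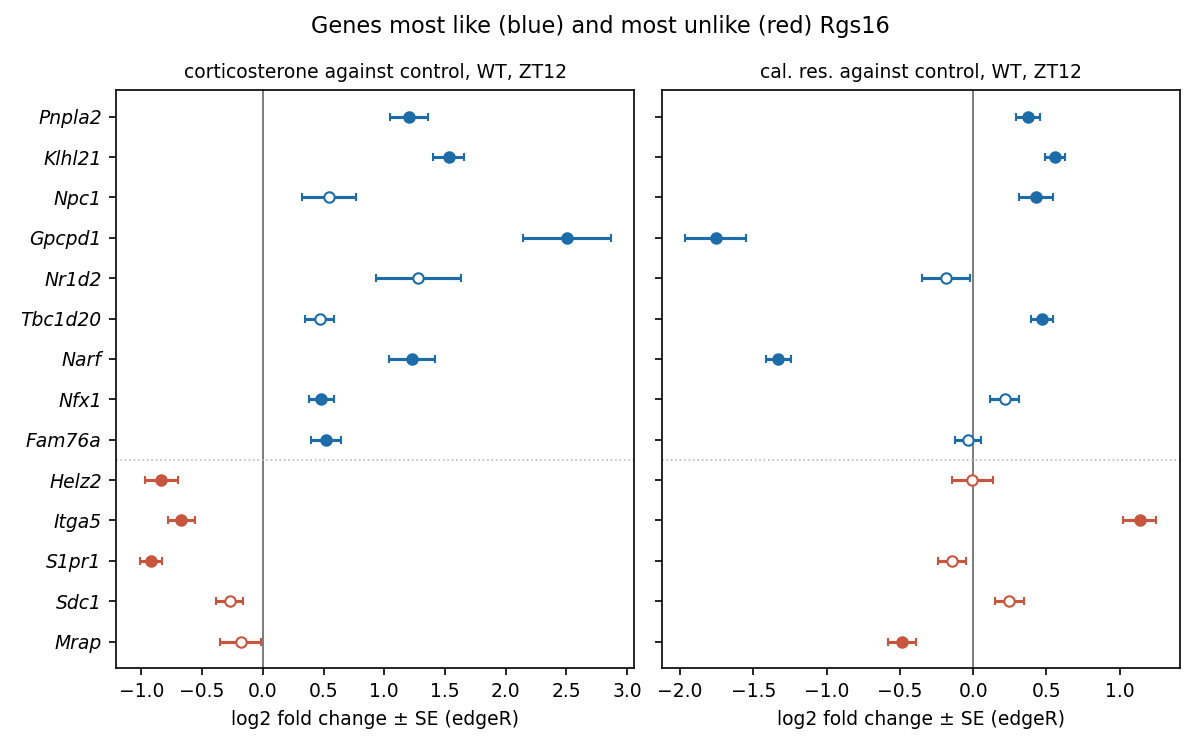
Log2 fold change (point) with its SE (bar) from edgeR for 9 of the 10 genes most like *Rgs16* over the time series (blue) and the 5 most unlike (red), with CORT against control (left) and cal. res. against control (right) in WT livers at ZT12, filled where the adjusted p was under 0.05. With CORT all 9 like genes shown have a positive value, from 0.47 to 2.50, and all 5 unlike genes a negative one, whereas on cal. res. *Gpcpd1* and *Narf* lie at -1.76 and -1.33.

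Of the genes near *Rgs16* on chromosome 1, *Rgs8* is of the same family and was nearly absent from the time series, at 0.038 CPM on cal. res. The helicase *Dhx9* was at 68.1 CPM on cal. res. and 64.8 CPM on control diet, had an r of 0.224 with *Rgs16* and was not called in any of the 10 comparisons by edgeR.

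The start of the gene is shown because the study concerns a transcription factor and the level of *Rgs16* moved with time of day, diet and ligand. The RefSeq promoter table for GRCm38.p6 gives the 246 bases before the annotated start, at chr1:153740103-153740348 on the plus strand, with the match to a CCAAT box (ATTGG on this strand) and 2 overlapping matches to a GC box (CCGCCC on this strand) in capitals.
Rgs16 promoter: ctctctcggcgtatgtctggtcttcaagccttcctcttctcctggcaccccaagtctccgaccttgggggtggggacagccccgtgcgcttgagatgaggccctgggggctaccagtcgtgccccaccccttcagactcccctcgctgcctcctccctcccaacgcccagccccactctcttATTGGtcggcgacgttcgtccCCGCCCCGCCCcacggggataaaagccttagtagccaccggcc
The CCAAT box lies at 153740285 to 153740289, 64 bases before the start, and the GC boxes at 153740306 to 153740311 and 153740311 to 153740316, with 1 base in common. On both strands, 33.6% of 32851 promoters of the same length hold CCAAT and 32.2% hold GGGCGG. The GC content of 65.9% compares with a median of 52% over all promoters. No match was found in this window for the E-box CACGTG of the clock (in 5.89% of promoters), for the letters AGAACA of a GR site (15.9%) or the whole GR site of AGAACA, any 3 bases and TGTTCT (0.00913%), or for the D-box TTATGTAA (0.816%). The FoxO letters TGTTTAC (3.12%), the cAMP element TGACGTCA (1.51%) and the REV-ERB letters AGGTCA (13.8%) were absent as well. These are counts of letters in a short window, and sites further away were not searched.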

How the data were processed

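The authors deposited 4 tables of expected counts per gene (estimated counts from Salmon, not normalized), with FastQC, MultiQC, Salmon, DESeq2 and the build mm10 named in the submitters' processing notes. Of 27654 gene IDs 27244 were matched to a symbol, and 0 columns were left without a sample. The deposited VST values of the CORT libraries were not used, since the tests need counts. Each table was scaled by itself with edgeR 4.0.16 (TMM) in R 4.3.3, and a prior count of 2 was added for log2 CPM. For the tests across genes, counts were rounded, genes were filtered with filterByExpr (minimum count 10), each of 10 pairs of groups was fitted alone with edgeR's quasi-likelihood F test, and Benjamini-Hochberg adjusted p-values under 0.05 were called. Alternatives were RLE size factors, no TMM scaling, a prior count of 0.5, DESeq2 1.42.0, the replicate number as a block and each library left out. The code was checked on simulated data. Of 102 pairs of libraries within groups none was identical. *Rgs16*, the gene lists and the tests were chosen with earlier results of these data known. Named genes, by a written rule and apart from some that are not reported, are *Rgs16*, *Nr3c1*, the 10 genes most like and 5 most unlike *Rgs16*, tested members of the RGS, G-protein, effector and receptor lists, up to 3 called genes per direction and the 3 highest and 3 lowest r of each other list, the 3 nearest genes on either side and the defining and most abundant marker of each of 10 cell types. Intervals and SEs do not cover errors beyond counting and the spread between livers.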

Additional observations from a re-analysis of the deposited data

How the results depend on the processing

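The 18 log2 differences of *Rgs16* cover ZT12, each time point between genotypes and the meal. They moved by less than 1 SD of the livers with RLE size factors, without TMM scaling, with a prior count of 0.5, with DESeq2 and with the replicate block. With the edgeR fit 17 of the 18 did so. Leaving out 1 liver of 3 or 4 cannot move a group mean by 1 SD of its group, so ranges are given for it. The CORT difference ran from 6.27 to 6.64 and the genotype difference at ZT12 on cal. res. from -2.73 to -2.16. At ZT12 on control diet the genotype difference ran from -2.04 to -1.06, and at ZT20 on cal. res. from -1.30 to 0.48. Groups of 3 or 4 livers limit every one of the 18 differences, and on control diet so do counts that fall to 2 at ZT0, 6 at ZT16 and 1 at ZT20.

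Replicate numbers did not pair across groups (r of matched livers from -0.122 to 0.115), so the replicate block removes degrees of freedom. With the replicate block 534 genes were called for CORT, 889 and 101 for genotype at ZT12 on cal. res. and control diet, 287 and 32 at ZT16, and 998 (WT) and 16 (GR LKO) for ZT16 against ZT12 on control diet, in place of 935, 1795, 238, 541, 232, 1540 and 1065. DESeq2 called 564 for genotype at ZT12 on control diet, 916 at ZT16 on cal. res. and 634 at ZT16 on control diet. The cause was not tested. Among the fold changes of single list and like genes, 124 calls were lost and 3 gained under these settings, 558 were lost and 3 gained with a library left out, and no called value changed sign. Diet (5686), WT (3718) and GR LKO (4191) meal steps on cal. res. stayed within 1.5 times their counts with the block.

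With 1 library left out the counts ran from 206 (without control replicate 2) to 1008 for CORT, 899 to 1329 and 137 to 199 for genotype at ZT12 on cal. res. and control diet, 234 to 346 and 84 to 183 at ZT16, and 875 to 1384 (WT) and 379 to 980 (GR LKO) for the step from ZT12 to ZT16 on control diet. For diet they ran from 4512 to 6471.

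Of the 10 genes most like *Rgs16*, 9 were shared with each diet and genotype centred, 7 by Spearman's rho, 7 without ZT12, 5 with WT libraries only, and 0 with each group centred, a setting chosen after seeing the data that removes time of day by construction.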
